A study of Halocynthia roretzi with 24 samples.

Results

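Harore.CG.MTP2014.S480.g12062 and Harore.CG.MTP2014.S480.g14149 (g12062 and g14149) are a pair of overlapping gene models on scaffold S480 of *Halocynthia roretzi*, a solitary ascidian. They are 2 of the 16078 models whose expression was measured, and both were above 0 in all 24 libraries. The pair was chosen by its RPKM values, which were far higher in vegetal than in animal hemispheres at 8 cells and far lower at 110 than at 8 cells. Those contrasts are therefore described here without a test. The 110-cell values of each region entered the second contrast, so tests on them are not free of the choice either. The study sequenced RNA from vegetal hemispheres, animal hemispheres and whole embryos at the 110-cell and the 8-cell stage, with 4 libraries per group numbered 2, 3, 4 and 5. All embryos were wild type and of the southwestern Japanese population, from animals kept in an inland laboratory over generations. The labels say neither how the hemispheres were separated, nor how many embryos made up a library, nor what the library numbers mark. The p-values therefore measure the spread between these libraries, which may be technical.

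An ascidian egg is loaded with maternal messenger RNA that serves the first cleavages and is then gradually cleared while the embryo turns on its own genes. Some of these maternal RNAs are not spread evenly: ascidian eggs hold localised RNAs in the vegetal and posterior cytoplasm, and cleavage parcels them out to particular blastomeres. In ascidians the animal hemisphere gives rise mainly to epidermis and parts of the nervous system, and the vegetal hemisphere to endoderm, notochord, muscle and mesenchyme. The deposited annotation gives no gene name for either model, so no function is assigned to them here.

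The models lie on opposite strands and meet at their ends. g12062 runs on the plus strand from 9248 to 10663 of scaffold S480 and has 3 exons of 14, 79 and 300 bases, all annotated as coding, 393 bases in all. Its annotation names no protein match. g14149 runs on the minus strand from 10488 to 16473 and has 10 exons with 2166 bases, of which 1377 are coding, and its note names KH.C1.755 as a unique match. No other model carries that note. The spans overlap by 176 bases, from 10488 to 10663, and 156 of these are exonic in both models. Those 156 bases make up 39.7% of the exons of g12062 and 7.20% of those of g14149, where all of them are 3′ untranslated sequence. The libraries did not keep strand, and how the authors' counting treated overlapping models is not given in the sources used here, so reads in the shared bases cannot be assigned to one strand or the other.

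**Figure D1:**
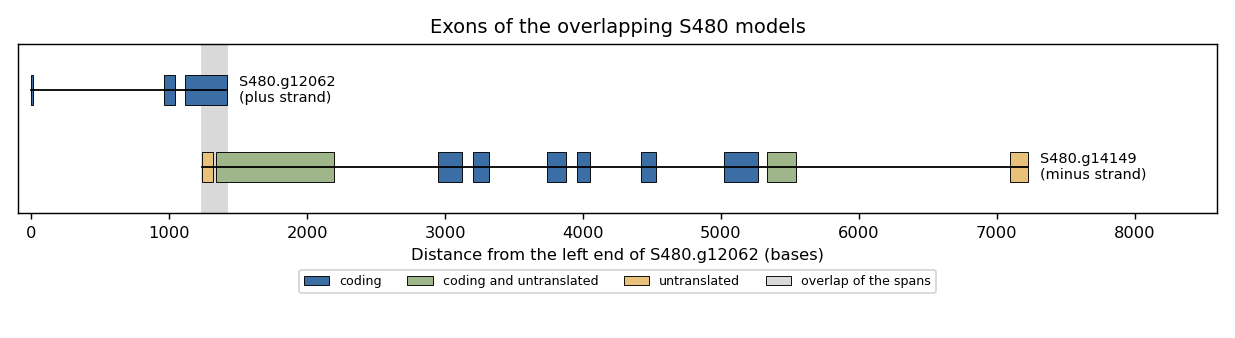
Exons of the plus-strand model g12062 (top) and the minus-strand model g14149 (bottom), drawn to scale by distance in bases from the left end of g12062; boxes are exons and the grey band is the 176-base overlap of the spans. The band covers part of the last exon of g12062 and the 3′ end of g14149.

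Expression was deposited as RPKM, reads per kilobase of model and M (mega) reads. The steps between low values placed the depth, the read total by which RPKM was scaled, between 3.51 and 8.85 M reads (median 5.78 M). Which reads that total counts is not given in the sources used here. On this scale g14149 held 358 to 11919 reads per library and g12062 held 18 to 1205. The 18 reads of g12062, in the whole-embryo library of number 2 at 110 cells, have an exact 95% Poisson interval of 10.7 to 28.4. A floor of 3 reads corresponds to 0.801 to 2.02 RPKM for g12062, and intervals and floors cover counting error only. Mean depth was lowest in vegetal hemispheres at both stages, at 4.23 M reads in the 110-cell and 5.40 M in the 8-cell group.

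**Figure D2:**
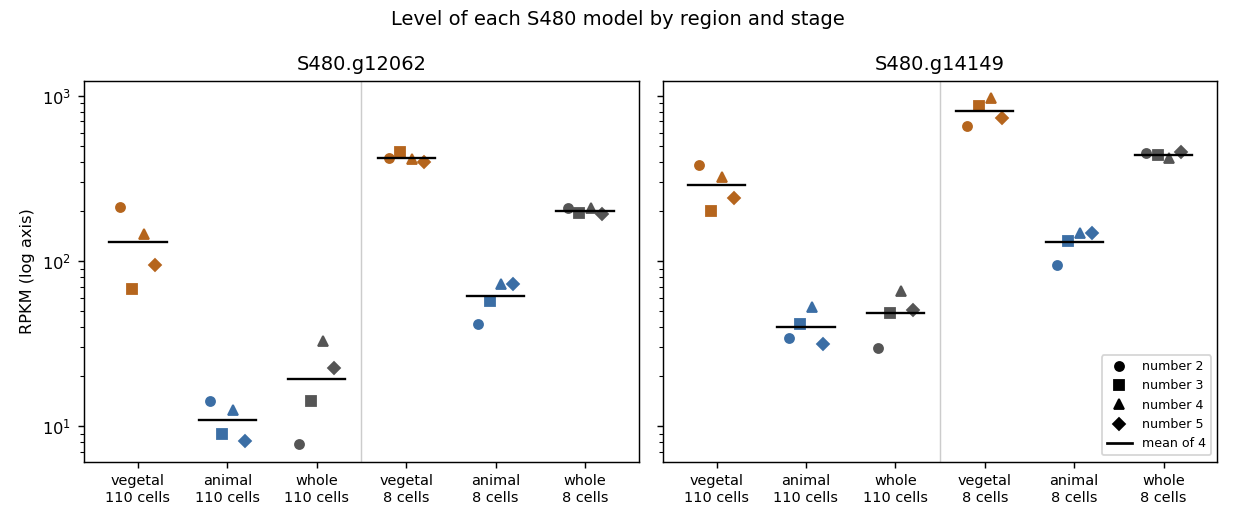
RPKM on a log axis for g12062 (left) and g14149 (right) in each library, by region and stage; symbols are the library numbers and black lines the means of 4 libraries. In both panels the vegetal libraries of a stage lie above its animal libraries, and the whole embryos of 110 cells lie among or close to the animal libraries of that stage.

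At 110 cells both models were higher in vegetal than in animal hemispheres, with no overlap between the libraries. How many other models or pairs showed no overlap, here or in the comparisons below, was not counted. g14149 stood at 384, 202, 324 and 239 RPKM in the vegetal hemispheres of numbers 2, 3, 4 and 5, against 34.0, 41.5, 52.9 and 31.5 RPKM in the animal hemispheres. The lowest vegetal library was thus well above the highest animal one, and the number 2 pair was the farthest apart at 11.3-fold. The means were 287 ± 82.2 RPKM for vegetal against 40.0 ± 9.58 RPKM for animal hemispheres (SD, n = 4 each), a 7.18-fold difference. In the limma fit the log2 difference, vegetal minus animal, was 2.80 ± 0.22 SE (adjusted p = 1.75e-09). For both models this test draws on 110-cell values that helped choose the pair, so its p-value is no separate support.

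g12062 showed the same order with a larger ratio. It held 4.15% to 12.3% as many reads as g14149 over the 24 libraries, a range that includes the 7.20% of the exon bases of g14149 that lie in g12062. Reads of g14149 counted for g12062 cannot be told apart from its own, so its values and its test are not independent of those of g14149. It stood at 213, 68.1, 145 and 94.3 RPKM in vegetal hemispheres, against 14.2, 8.96, 12.4 and 8.14 RPKM in animal hemispheres, again in the order of numbers 2 to 5. The vegetal libraries spread more than 3-fold among themselves, with number 2 highest and number 3 lowest in both models. The means were 130 ± 63.8 RPKM for vegetal against 10.9 ± 2.88 RPKM for animal hemispheres (SD, n = 4 each), an 11.9-fold difference (log2 3.36 ± 0.32 SE, limma adjusted p = 5.00e-08). Vegetal-higher calls were made for 5.51% of the 12703 models tested, and calls in either direction for 9.16%. The animal libraries held only 25 to 34 reads of g12062 each, and their coefficient of variation of 26.3% compares with 18.8% from counting error alone. In these bulk libraries fewer cells with a transcript and less of it per cell cannot be told apart.

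Both models, which differed between the hemispheres at 110 cells, were already abundant at 8 cells. Whether the RNA at 110 cells was left from 8 cells or newly made was not tested. By the size of the log2 difference g12062 ranked 111th and g14149 178th of the 12703 models. Of the 176 other models with a larger difference than g14149, 155 had a mean below 1 RPKM in vegetal hemispheres at 8 cells. The share of all 12703 models below that level was not counted. At that stage g14149 averaged 806 RPKM in vegetal hemispheres, the 16th highest mean of all 16078 models, and g12062 averaged 422 RPKM, the 46th highest. The 8-cell levels were among the values that chose the pair, so these ranks are a description.

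At 8 cells the order of the regions was vegetal, whole, animal in both models. g14149 stood at 658, 868, 967 and 731 RPKM in the vegetal hemispheres of numbers 2 to 5 and at 95.0, 132, 147 and 148 RPKM in the animal hemispheres, against 448, 440, 420 and 458 RPKM in whole embryos. g12062 stood at 419, 456, 415 and 400 RPKM in vegetal hemispheres and at 41.6, 57.3, 72.7 and 72.6 RPKM in animal ones, against 211, 196, 208 and 192 RPKM in whole embryos. No 2 of the regions overlapped in either model. The fitted log2 difference between vegetal and animal hemispheres was 2.62 ± 0.22 SE for g14149 and 2.80 ± 0.32 SE for g12062, which are 6.17-fold and 6.92-fold as ratios of means.

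Whole embryos of 8 cells were the most even group. The coefficient of variation over the 4 libraries was 3.69% for g14149 and 4.50% for g12062, where counting error alone would give 1.32% and 4.45%. In animal hemispheres of the same stage it was 19.1% and 24.4%, and number 2 was the lowest library for both models.

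A change of the regional difference between the stages was within the error of the fit or close to it. The change in the log2 difference between vegetal and animal hemispheres, 110 minus 8 cells, was 0.17 ± 0.31 SE for g14149 and 0.55 ± 0.46 SE for g12062. The intervals implied by these errors are wide and do not show that the difference stayed the same.

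The level of both models was lower at 110 than at 8 cells in every region and every number. In vegetal hemispheres g14149 retained 35.6% of its 8-cell mean, and 23.2% to 58.3% within a number, while g12062 retained 30.8%, and 14.9% to 50.8% within a number. In animal hemispheres the retained levels were 30.6% for g14149 and 17.9% for g12062. Whole embryos kept the least, with means at 110 cells 9.11-fold lower for g14149 and 10.5-fold lower for g12062. These are shares of what each library held, and embryos with less or more RNA in all would not be told apart by them.

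The fitted log2 changes, 110 minus 8 cells, give the same picture on a log scale. For g14149 they were -1.52 in vegetal hemispheres, -1.69 in animal hemispheres and -3.21 in whole embryos, each ± 0.22 SE. For g12062 they were -1.82, -2.37 and -3.49 in the same regions, each ± 0.32 SE. The libraries of 110 and 8 cells did not overlap in any region for either model.

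Ordered by mean over all 6 groups, g14149 was highest in vegetal hemispheres at 8 cells, then in whole embryos at 8 cells (442 RPKM), vegetal hemispheres at 110 cells (287), animal hemispheres at 8 cells (131), whole embryos at 110 cells (48.5) and animal hemispheres at 110 cells (40.0). Of the neighbours in this order only the last pair overlapped. For g12062 the order was the same, at 422, 202, 130, 61.1, 19.3 and 10.9 RPKM, but its vegetal libraries at 110 cells (68.1 to 213 RPKM) overlapped both neighbouring groups, and the last 2 groups overlapped too. The RPKM of g14149 was thus still higher in vegetal hemispheres at 110 cells than in animal hemispheres at 8 cells.

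Whole embryos at 110 cells lay close to the animal hemispheres rather than between the hemispheres. g14149 stood at 29.7, 48.2, 65.5 and 50.5 RPKM in the whole embryos of numbers 2 to 5, and g12062 at 7.74, 14.2, 32.7 and 22.5 RPKM. In number 2 the whole embryo was below both of its hemispheres for either model, and number 4 was the highest whole embryo for both. The position of the whole embryo between the vegetal (0%) and the animal level (100%) of the same number was 90.9% to 101% for g14149 and 83.3% to 103% for g12062. At 8 cells the same position was 37.2% to 66.7% for g14149 and 55.2% to 65.2% for g12062.

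The position of the pair at 110 cells was set beside that of other regional genes. The difference of whole from vegetal RPKM was regressed through the origin on that of animal from vegetal RPKM. The slope, over the 882 to 969 genes called regional without the number in question, placed whole embryos at 53.2%, 61.3%, 62.1% and 48.9% in numbers 2 to 5. The fit was unweighted, so genes with large RPKM differences weigh most. The median position of the single vegetal-higher genes was 49.9%, 68.1%, 53.7% and 62.5% in the same numbers. With the slopes as shares the observed whole-embryo level was 0.15 to 0.47 of the level computed from the hemispheres for g14149. For g12062 it was 0.072 to 0.52 of that level. The pair was not alone in this. Among vegetal-higher genes a position at least as far to the animal side as that of g14149 was held by 23 of 583 in number 2, 71 of 574 in number 3, 61 of 591 in number 4 and 63 of 537 in number 5. For g12062 the counts over the same genes were 23, 90, 102 and 112. At 8 cells only 5 to 13 genes entered the slope, which was 57.3% to 58.5% in numbers 3, 4 and 5 and -26.7% in number 2. Over the 5 genes regional with any number left out, the slope in number 2 was 18.3%, so its sign depends on the genes used and no 8-cell slope is set beside the pair. The low level in whole embryos at 110 cells helped to choose the pair, so its position is a description.

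**Figure D3:**
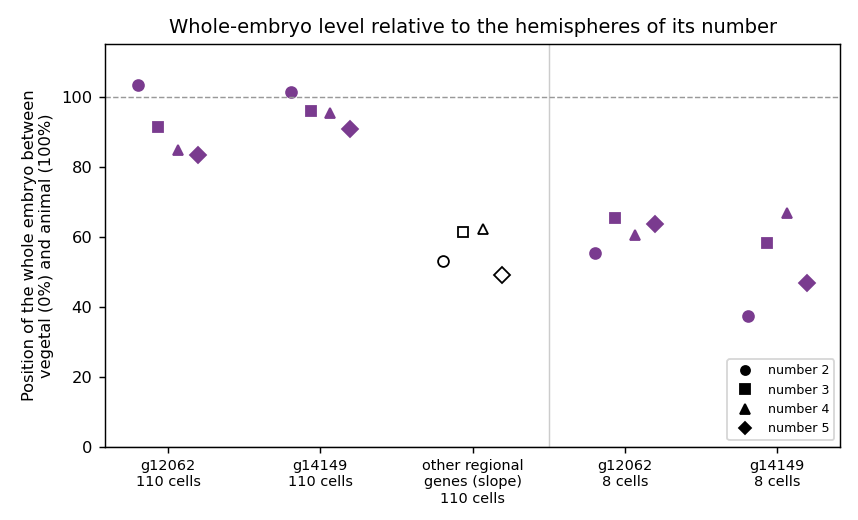
Position of the whole-embryo level between the vegetal (0%) and animal (100%) level of the same number, in percent, for both models at 110 and 8 cells (filled symbols) and as the slope over other regional genes at 110 cells (open symbols); symbols are library numbers. The pair lies at 83.3% to 103% at 110 cells, above the slopes of 48.9% to 62.1%, and at 37.2% to 66.7% at 8 cells.

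The RPKM of g14149 exceeded that of g12062 in all 24 libraries, and the models moved together. The RPKM of g12062 was 0.216 to 0.637 times that of g14149, with a median of 0.442. Across the 24 libraries the log2 levels correlated at a Pearson r of 0.989 (Spearman 0.969), at 0.977 within the 110-cell and 0.991 within the 8-cell libraries. Deviations from the group means correlated at 0.835. These values are descriptions: the points share region, stage and number, and the models share 156 exon bases. Among 1895 opposite-strand overlapping pairs with both models tested the median r was 0.539, and 22 pairs, or 1.16%, had an r at least as high as the S480 pair. Both S480 models were chosen for the same regional and stage pattern, which favours a high r, and the other pairs were not. Their rank is thus a description too.

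The ratio within a library was not itself used to choose the pair and was tested over the same 1895 pairs. Both models were, however, chosen for the same regional and stage pattern, which limits how far their ratio can differ between groups. The other pairs were not so chosen, so the p-values are not free of the choice. At 110 cells the log2 ratio of g14149 over g12062 was 0.85, 1.55, 1.16 and 1.33 in the vegetal hemispheres of numbers 2 to 5, against 1.20, 2.09, 2.0 and 1.83 in the animal hemispheres. It was lower in the vegetal library in each of the 4 numbers, but the groups overlapped. The difference, vegetal minus animal, was -0.56 ± 0.20 SE (limma adjusted p = 0.210), where 3.38% of the pairs were called. With the library number as a block its limma adjusted p was 0.144. At 8 cells the difference was -0.18 ± 0.20 SE (adjusted p = 1, with 0% of the pairs called and 30 at an unadjusted p under 0.05).

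In animal hemispheres the ratio was higher at 110 than at 8 cells, a difference at the edge of the threshold. The log2 ratio was 1.20 to 2.09 at 110 cells, with a mean of 1.78 ± 0.40, against 1.01 to 1.19 at 8 cells, with a mean of 1.10 ± 0.097 (SD, n = 4 each), and the groups did not overlap. The difference of 0.69 ± 0.20 SE had a limma adjusted p of 0.0553, where 4.85% of the pairs were called. With the library number as a block the adjusted p was 0.0358, where 8.23% of the pairs were called. Without the animal library of number 2 at 110 cells the difference was 0.88 (limma adjusted p = 0.00724), and the vegetal minus animal difference at 110 cells was -0.75 (limma adjusted p = 0.0352). That vegetal minus animal difference was called under only this 1 of 33 alternatives. Without the animal library of number 3, 4 or 5 at 110 cells the stage difference was 0.58, 0.61 and 0.67, and not called (limma adjusted p = 0.168, 0.137 and 0.137). Leaving out 1 library that does not enter the comparison, the vegetal or whole-embryo library of number 2 or the whole-embryo library of number 4 at 110 cells, left the difference at 0.69 with limma adjusted p-values of 0.0444, 0.0451 and 0.0425. Such omissions were chosen after the data were seen. Of 33 alternatives in all, 26 left the stage difference in animal hemispheres uncalled. The animal library of number 2 at 110 cells held 34 reads of g12062, with an exact 95% Poisson interval of 23.5 to 47.5.

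Vegetal hemispheres and whole embryos gave smaller changes of the ratio with overlapping groups. The difference, 110 minus 8 cells, was 0.31 ± 0.20 SE in vegetal hemispheres (limma adjusted p = 0.490, with 7.86% of the pairs called) and 0.28 ± 0.20 SE in whole embryos (adjusted p = 0.515, with 9.13% called). The whole-embryo ratios at 110 cells split into 1.81 and 1.69 for numbers 2 and 3 and 0.98 and 1.13 for numbers 4 and 5. An exact two-sided permutation test of the 4 against 4 ratios, unpaired by number, gave p = 0.0286 in animal hemispheres. That is the smallest p such an unpaired test allows, and it was 0.143 after adjustment over the 5 comparisons of the ratio. The change of the ratio in vegetal minus that in animal hemispheres was -0.38 ± 0.29 SE (limma adjusted p = 0.999, with 0.95% of the pairs called), so a difference between these regions was not shown. The changes in whole embryos and in hemispheres were not tested against each other.

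**Figure D4:**
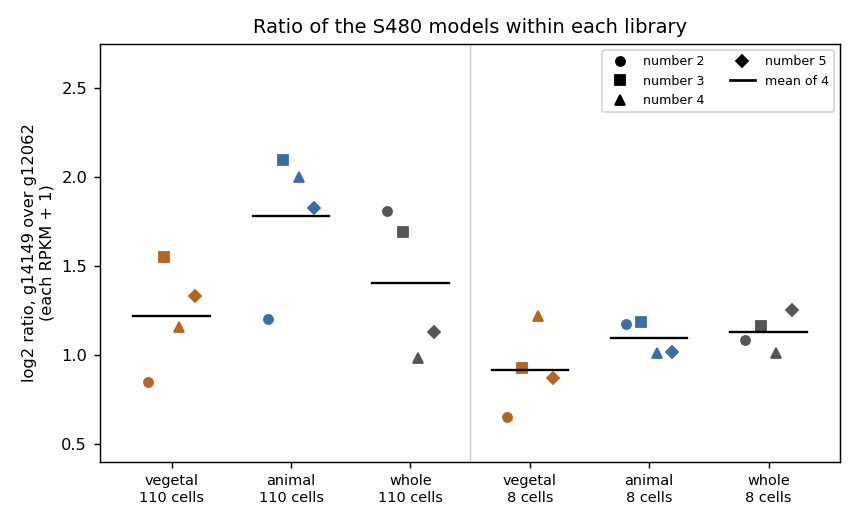
Log2 ratio of g14149 over g12062 (each RPKM + 1) in each library, by region and stage; symbols are library numbers and black lines the means of 4 libraries. Animal libraries lie at 1.20 to 2.09 at 110 cells and at 1.01 to 1.19 at 8 cells, and the other regions overlap between the stages.

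Over the 24 libraries the same 2 models were most like each member. Harore.CG.MTP2014.S375.g14187 (scaffold S375, 9310 to 15739, minus strand, note KH.C1.98) had a Pearson r of 0.969 with g14149 and 0.959 with g12062. Harore.CG.MTP2014.S672.g15167 (scaffold S672, 1 to 3433, plus strand, note KH.C4.482) had an r of 0.958 with g14149 and 0.957 with g12062. The third model in this order reached 0.926 and 0.921. The 12701 models compared were measured in the same libraries, so the r values are descriptions.

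These models had smaller ranges and lower vegetal levels than the pair. Harore.CG.MTP2014.S375.g14187 averaged 39.1 ± 6.80 RPKM in vegetal hemispheres and 20.1 ± 3.64 RPKM in animal ones, against 19.5 ± 3.44 RPKM in whole embryos, at 110 cells (SD, n = 4 each). At 8 cells the means were 82.8 ± 14.4 RPKM in vegetal hemispheres and 33.7 ± 5.78 RPKM in animal ones, against 55.6 ± 5.50 RPKM in whole embryos. Its whole embryos, too, lay near the animal mean at 110 cells and between the hemispheres at 8 cells, a pattern that the search for likeness favours. Harore.CG.MTP2014.S672.g15167 averaged 68.9 ± 20.4 RPKM in vegetal hemispheres and 21.8 ± 4.34 RPKM in animal ones, against 29.6 ± 4.18 RPKM in whole embryos, at 110 cells. At 8 cells it averaged 138 ± 12.6 RPKM in vegetal hemispheres and 63.8 ± 8.32 RPKM in animal ones, against 112 ± 14.3 RPKM in whole embryos.

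The other models on scaffold S480 were low. The highest group mean among the 9 others in the table was 8.72 RPKM. The nearest on the left, Harore.CG.MTP2014.S480.g06241 (1401 to 4053), ends 5194 bases before g12062 and was listed at 0 in all libraries of 8 cells. The nearest on the right, Harore.CG.MTP2014.S480.g05512 (21991 to 28427, note KH.C10.551), starts 5517 bases after g14149 and averaged 0.588 ± 0.868 RPKM in vegetal hemispheres and 1.48 ± 1.24 RPKM in animal ones at 110 cells (SD, n = 4 each; limma adjusted p = 0.454).

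Of the 9 models 5 passed the filter, and 1 was called in each direction at 110 cells, where 5.51% of all tested models were called vegetal-higher and 3.64% animal-higher. Both are named after their values were seen, and no test is given for them. Harore.CG.MTP2014.S480.g00073 averaged 2.33 ± 0.395 RPKM in vegetal hemispheres and was listed at 0 in all 4 animal libraries. It passed the filter only through those vegetal libraries, so its call carries no weight. Harore.CG.MTP2014.S480.g09526, with the note KH.C1.953, went the other way, at 1.15 ± 0.974 RPKM in vegetal hemispheres and 8.72 ± 3.88 RPKM in animal ones (SD, n = 4 each).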

How the data were processed

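The authors deposited RPKM values for 16078 gene models, 1 column per library, and an annotation of 16082 models. Illumina TruSeq libraries were made from Trizol-extracted total RNA and were not strand-specific for the samples used here, per the labels' protocols. HISAT2 is named in the submitters' processing notes. The genome build, the counter and how multiply matching reads were treated were not given in the sources used here.

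Tests were run on log2(RPKM + 1) with limma 3.58.1 (R 4.3.3), for models that reached 1 RPKM in 4 or more libraries, with all 24 libraries and 6 groups in 1 fit, two-sided, Benjamini-Hochberg adjusted over all models (or all 1895 opposite-strand pairs, minus-strand minus plus-strand model), threshold 0.05. Fold changes on this scale understate the change of low genes. The members, lists and tests were chosen with earlier results of these data known. Named models are the pair, the 2 of highest Pearson r with each member, and the nearest on either side; 2 further S480 models were named after their values were seen.

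Depth was inferred from models without annotated untranslated exons: RPKM multiplied by exon length plus 30 bases, which fitted best among the lengths tried, gave values within 0.1 reads of a whole number in 84.1% to 89.8% of values under 20 reads, where 20% would by chance. For g12062, all 12 libraries under 200 reads lay within 0.109 reads of a whole number. No count model was used. Numbers come from the labels. Deviations of same-numbered libraries correlated at 0.402 to 0.489 between vegetal and animal hemispheres at 110 cells, 0.372 to 0.583 at 8 cells, and 0.126 to 0.474 (animal) and 0.146 to 0.372 (vegetal) between the stages, so the numbers were taken to pair those libraries. The main fits and the permutation test did not use this pairing, and the replicate block did. Alternatives are given in the closing section.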

Additional observations from a re-analysis of the deposited data

Results flagged for a closer look

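In animal hemispheres at 110 cells Harore.CG.MTP2014.S375.g14187, the model most like the S480 pair, stood at 14.7 RPKM in number 5, apart from 21.3, 21.5 and 22.7 RPKM in the other libraries. Its gap to the nearest library, divided by the range of the group, was 0.831, just above Dixon's critical value for 4 samples. It was the only such library among 30 groups of 4 checked for the pair, its ratio and the models most like it, and chance gives about 1 in 20.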

How the results depend on the processing

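The vegetal minus animal difference at 110 cells was called under all 19 alternatives for both models, at log2 2.58 to 2.98 for g14149 and 3.08 to 3.62 for g12062. As it draws on values that chose the pair, these calls are no separate support. The number of genes called in that comparison was 1163, and 460 with a filter on a mean of 5 RPKM, 745 with the 2 groups alone and 1824 with the replicate block, and 884 to 1156 with a library or number left out. In animal hemispheres the change of the log2 ratio of g14149 over g12062, 110 minus 8 cells, was 0.69 and not called, but it was called with the replicate block (0.69, limma adjusted p = 0.0358) and with a pseudocount of 0.1 (0.76, limma adjusted p = 0.0452). With 1 library or number left out it was 0.58 to 0.90, and called without number 2 of every group (limma adjusted p = 0.00727) or without its animal library at 110 cells. It was also called, at an unchanged 0.69, without the vegetal (0.0444) or whole-embryo (0.0451) library of number 2 or the whole-embryo library of number 4 (0.0425) at 110 cells; leaving out libraries of groups not compared was chosen after seeing the data. Its adjusted p ranged from 0.00724 to 0.338. The vegetal minus animal ratio at 110 cells was -0.75 to -0.43 with a library or number left out (adjusted p 0.0352 to 0.648). The replicate block changed no other call of the pair, and the cause was not tested. The change of that ratio in vegetal minus animal hemispheres was -0.57 to -0.15 with a library or number left out, and it was called under none of the alternatives (adjusted p 0.668 to 1). Each described regional or stage change kept its sign under all 8 alternatives, within 1 SD. The r of the S375 model with g12062 was 0.948 as Spearman's rho and 0.924 at 110 cells, and with g14149 it was 0.949 at 110 and 0.962 at 8 cells. That of the S672 model was 0.931 and 0.911 with g12062, and with g14149 it was 0.948, 0.924 and, at 8 cells, 0.975. Over genes regional with any number left out, the mean slope of whole embryos was 47.7% in place of 36.8% at 8 cells and 55.0% in place of 56.4% at 110 cells. Depth limits g12062 most, with 18 to 83 reads in each animal and whole-embryo library of 110 cells.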
